A study of Mus musculus with 46 samples.

Results

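Gene expression was compared between 2 lines of AML12 cells, a mouse hepatocyte cell line, before doxycycline had been added to either. The control line carried a doxycycline-inducible control hairpin (shCtrl). The other line carried a hairpin, also inducible, that the file names shLinc. It is read here as the Falcor hairpin, against the long noncoding RNA of that name, since the samples carry a tag shfalcor. Each line was sampled in 3 libraries, 6 of the 46 samples of the series, and all 6 are labelled No Dox. Of 55774 genes listed, the 10027 with a mean value of at least 3 over these 6 libraries were tested. The series asks what Falcor does in nuclear speckles, the bodies of the nucleus that are rich in splicing factors, and the untreated lines show how far the cells differed with no induction. Both lines also have libraries with doxycycline added (Add Dox) and libraries labelled Restored, 3 in each group. The Restored libraries are titled DoxMinus, read here as cells after doxycycline and its withdrawal. Values of these 12 libraries are given below only where the difference between the lines is set beside its size in another state. The 12 also share in the rescaling and in the estimate of spread behind each standard error, p-value and call. The promoter that drives the hairpin, whether a line is a clone or a pool, its passage and its medium are not stated in the labels. There is 1 line for each hairpin, so the hairpin, the line and its history cannot be told apart. Nothing in the labels says that the 3 libraries of a line came from separate cultures, so each p-value reflects library spread alone, which may be technical.

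AML12 cells were established from the liver of a mouse that expressed a human growth factor, transforming growth factor alpha, and they keep part of the hepatocyte program while dividing in culture. Dividing hepatocytes and hepatocytes at rest use amino acids and fat differently. The transcription factor ATF4 switches on amino acid synthesis, uptake and tRNA charging when amino acids run short or growth signals are strong, ribosome production and DNA replication follow growth signals, and fasting turns the hepatocyte to fat oxidation through PPAR alpha, FOXO factors and glucocorticoids. Hepatocytes also answer bacterial products and cytokines with chemokines and acute phase proteins, largely through NF-kB and STAT3.

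The deposited values are whole numbers that resemble TPM. They summed to 866376 to 880717 per library, so the read depth behind them is unknown, and no counting interval can be given. Libraries of the same line resembled each other more than libraries of different lines. Pearson's r of log2 values across tested genes, given as a description, was 0.979 to 0.991 among the control libraries, 0.989 to 0.99 among the Falcor hairpin libraries and 0.945 to 0.965 between the lines. Control replicate 1 stood apart from the other 2 controls in its long transcripts. Its deviation from the control mean changed by −0.109 on the log2 scale per doubling of transcript length, against 0.0598 and 0.0487 in control replicates 2 and 3 and −0.00268 to 0.00317 in the Falcor hairpin libraries. The fibronectin gene Fn1, with a long transcript, was at 43 in control replicate 1 and at 155 and 164 in the other controls, with 118, 121 and 114 in the Falcor hairpin line. The difference between the lines also followed length. The median log2 fold change was −0.251 in genes with transcripts up to 1814 bases, the shortest of 4 equal groups, and 0.245 in genes over 4440 bases, the longest (Spearman's rho 0.391 across 9713 genes, a description). Without control replicate 1 the same medians were −0.188 and 0.129 and rho was 0.274. Scaling between libraries also bore on direction. The values were rescaled by the trimmed mean of M-values, which put the median gene at −0.00803. With no rescaling the median moved to 0.172, and 4572 genes were called higher (45.6% of those tested) and 2141 lower (21.4%), so that 68.1% of calls were higher in place of 46.8%. Each direction below is therefore relative to the rescaled median gene.

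**Figure D1:**
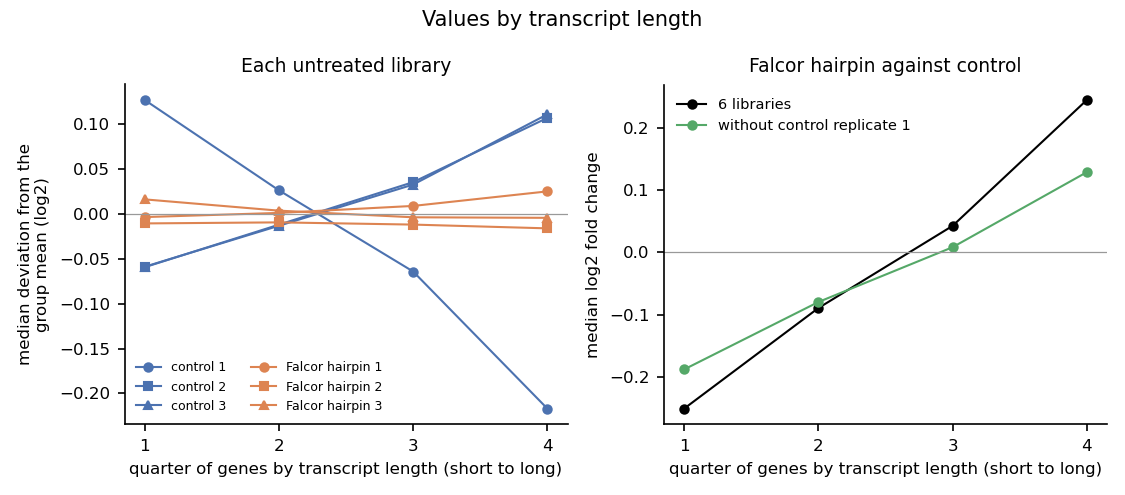
Left, the median deviation of each untreated library from the mean of its group (log2 units) in 4 equal groups of genes by transcript length, from short to long. Right, the median log2 fold change of the Falcor hairpin line against the control line in the same groups of genes, with all 6 libraries (black) and without control replicate 1 (green). Control replicate 1 runs from 0.127 in the shortest group to −0.217 in the longest, and the fold change runs from −0.251 to 0.245, or from −0.188 to 0.129 without that library.

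The lines differed at most of the genes tested, mostly by little. Limma, fitted over all 18 libraries of these lines, called 6533 of 10027 genes at an adjusted p under 0.05, which is 65.2%. A fit of only the 6 untreated libraries called 5456. Of all tested genes, 3058 (30.5%) were called higher and 3475 (34.7%) lower in the Falcor hairpin line, and these shares are the background for every count of called genes below. The median absolute log2 fold change was 0.30. The libraries of the lines did not overlap for 3199 genes that were higher (31.9%) and 3447 that were lower (34.4%). A difference of at least 2-fold, also called, was rarer, with 194 genes higher (1.93%) and 170 lower (1.7%). Rounding to whole numbers made the spread look too small for low genes. The 3 control values were identical for 485 tested genes and the 3 Falcor hairpin values for 1094.

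Falcor itself was not lower in the line built to deplete it. Falcor, listed as 9030622O22Rik, is transcribed from chr2:147944740-148040203 on the minus strand (mm10), next to Foxa2, which encodes a forkhead factor of endoderm and liver. Its values were 4, 6 and 5 in the control libraries and 12, 9 and 10 in the Falcor hairpin libraries, and the groups did not overlap (log2 fold change 0.75 ± 0.14 SE, limma adjusted p = 1.89e-04). Foxa2 was at 59, 62 and 62 against 61, 63 and 65. Its fold change of −0.14 ± 0.03 passed the test, but it was 0.05 and not called with no rescaling. Foxa1 was at 9, 10 and 10 against 12, 10 and 11 and was not called (−0.01). Foxa3, another forkhead factor gene of the liver, was higher, at 12, 12 and 12 against 16, 17 and 19 (0.31 ± 0.09). Zc3h11a, which encodes a zinc finger protein of mRNA export that the series pairs with Falcor, was at 24, 22 and 23 against 24, 26 and 25 and was not called (−0.07).

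The ATF4 program was lower in the Falcor hairpin line, from its regulators to its target enzymes. Atf4 was at 314, 297 and 305 in the control libraries and at 178, 184 and 186 in the Falcor hairpin libraries, with no overlap (log2 fold change −0.93 ± 0.04 SE, limma adjusted p = 5.11e-12). Of 13 tested regulators, 8 were lower and 1 was higher, with a median log2 fold change of −0.56. Ddit3, which encodes the stress factor CHOP, was at 60, 55 and 53 against 29, 31 and 30 (−1.06 ± 0.07). Nupr1, a small stress-induced nuclear protein, was at 98, 104 and 98 against 29, 27 and 31 (−1.94 ± 0.06). Trib3, a pseudokinase that ATF4 induces and that restrains it, was at 39, 37 and 38 against 8, 7 and 9 (−2.29 ± 0.07). For each of these 3 genes every Falcor hairpin library lay below every control library. The bZIP partner genes Cebpb and Cebpg were lower by less, at −0.68 and −0.56. The kinases that act upstream by phosphorylating eIF2 alpha did not share this direction. Eif2ak3, which encodes the endoplasmic reticulum kinase PERK, was at 0.01, Eif2ak4, which encodes the amino acid sensor GCN2, was at 0.17, and neither was called. Eif2ak1, the heme-regulated kinase gene, was higher by 0.21. With no rescaling 7 regulators were lower and 4 higher.

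ATF4 pairs with C/EBP proteins on a response element whose core is TGATGNAA, and stretches of promoters that hold it are shown for 6 genes of these ATF4 lists that were called lower. They come from RefSeq windows of 250 bases before to 50 bases after the gene start (GRCm38.p6), 5′ to 3′ on the strand of the gene, and capitals mark the core on either strand.
Trib3 (chr2:152344028-152344057, minus strand): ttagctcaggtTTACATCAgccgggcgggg
Nupr1 (chr7:126625562-126625591, minus strand): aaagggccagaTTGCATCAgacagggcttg
Asns (chr6:7693214-7693243, minus strand): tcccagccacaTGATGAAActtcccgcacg
Chac1 (chr2:119351023-119351082, plus strand): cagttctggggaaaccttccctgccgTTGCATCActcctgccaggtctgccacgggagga
Pycr1 (chr11:120643818-120643877, minus strand): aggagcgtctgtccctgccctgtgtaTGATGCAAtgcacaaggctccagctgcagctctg
Slc1a4 (chr11:20332699-20332728, minus strand): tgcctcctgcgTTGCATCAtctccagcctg
The core was in 196 of 7697 tested genes with a window (2.55%). It was in 3 of 12 ATF4 regulators, 5 of 18 amino acid and one-carbon targets, 1 of 6 transporters and 5 of 13 cytosolic aminoacyl tRNA synthetases with a window. Of genes called and at least 2-fold lower, 12 of 117 held it (10.3%), and of those at least 2-fold higher, 2 of 136 (1.47%). It was also in the windows of Vldlr, which was higher (0.47), and of Atf3, which was at −0.27. A match describes these letters in this window and is not a measured binding site.

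Many enzymes that make serine, glycine, asparagine, proline and cysteine were lower, while Psat1 and Cbs among them differed by little. Of 21 tested ATF4 targets in amino acid and one-carbon metabolism, 16 were lower and 2 higher, and 10 were at least 2-fold lower, against 1.7% of all genes (median log2 fold change −0.79). Phgdh, which commits glycolytic carbon to serine, was at 509, 498 and 492 in the control line and at 259, 258 and 261 in the Falcor hairpin line (−1.13 ± 0.04). Psph, the phosphatase of the same route, was at 72, 67 and 67 against 24, 29 and 29 (−1.49 ± 0.06). Psat1, the aminotransferase between these enzymes, stood outside the group. It was at 669, 756 and 736 against 772, 790 and 789, with a fold change of −0.07 that became 0.12, called higher, with no rescaling. Its call was lost without control replicate 2 (−0.05) or Falcor hairpin replicate 2 (−0.06). In mitochondrial folate metabolism, Shmt2 was at 159, 167 and 171 against 71, 75 and 72 (−1.37) and Mthfd2 at 81, 89 and 81 against 25, 26 and 25 (−1.87). Asns, asparagine synthetase, was at 240, 258 and 256 against 114, 113 and 118 (−1.31 ± 0.03). The proline enzymes were lower to a like extent. Aldh18a1 was at 51, 61 and 66 against 27, 26 and 25 (−1.34) and Pycr1 at 25, 24 and 25 against 10, 11 and 11 (−1.31).

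Genes of cysteine and glutathione turnover stood at the lower end of the list. Cth, which makes cysteine from cystathionine, was at 25, 27 and 24 against 5, 5 and 4 (−2.38 ± 0.08), and Chac1, which degrades glutathione, was at 36 in each control library against 10, 10 and 8 (−2.02 ± 0.08). Eif4ebp1, a repressor of cap-dependent translation, was at 124, 126 and 119 against 66, 67 and 65 (−1.08). Not all listed targets were lower. Ndrg1 was higher, at 173, 185 and 188 against 399, 404 and 405 (0.95 ± 0.03). Vldlr, a lipoprotein receptor gene, was also higher, at 9, 16 and 13 against 20, 20 and 20 (0.47, 0.30 without control replicate 1, and 0.14 and not called with the trend with length removed). Cbs, Stc2 and Gpt2 were at −0.04, 0.02 and 0.06 and were not called. With no rescaling 13 targets were lower and 5 higher.

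Amino acid uptake and tRNA charging followed the same direction. Of 8 tested transporter genes, 7 were lower and none was higher (median −0.82). Slc7a5, the light chain of the leucine exchanger LAT1, was at 89, 107 and 111 against 37, 37 and 35 (−1.65 ± 0.04), and its heavy chain Slc3a2 was at 797, 806 and 802 against 538, 539 and 547 (−0.76 ± 0.03). The cationic amino acid carrier Slc7a1 was at 14, 21 and 22 against 7 in each Falcor hairpin library (−1.47), and the neutral amino acid carrier Slc1a4 at 9, 10 and 11 against 4 in each (−1.29). Slc38a7 was at −0.07 and not called. Slc1a5 was at −0.16, a call that was lost without control replicate 1 (−0.10) or 2 (−0.16), without Falcor hairpin replicate 1 (−0.13) or 3 (−0.155), and with no rescaling (0.03). With no rescaling 5 of the 8 were lower and none was higher. Of 20 cytosolic aminoacyl tRNA synthetase genes, which encode the enzymes that load amino acids on tRNA, 18 were lower and none was higher (median −0.62). Cars, the cysteine enzyme, was at 134, 151 and 149 against 83, 83 and 84 (−0.97 ± 0.03). Aars, the alanine enzyme, was at 148, 173 and 176 against 99, 99 and 100 (−0.92 ± 0.03). The aspartate and glutamine enzymes Dars and Qars were at −0.06 and 0.18 and were not called. Dars was called lower without control replicate 3 (−0.12), but higher with no rescaling (0.13). The joint enzyme for glutamate and proline, Eprs, was at 56, 76 and 77 against 67, 68 and 69. Its difference was −0.21, and −0.31 without control replicate 1. The call was lost with no rescaling, where 16 of the 20 were lower and 1 was higher.

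Genes of the unfolded protein response differed in both directions. Of 23 tested endoplasmic reticulum chaperone and stress genes, 8 were higher and 6 lower, but 14 and 3 with no rescaling and 11 and 8 with the trend with length removed. Hspa5, which encodes the main chaperone BiP, was at 407, 448 and 442 against 387, 413 and 396 (−0.31). Hsp90b1, another chaperone of this compartment, was at 171, 206 and 200 against 284, 294 and 296 (0.41). Xbp1 and Atf6, which encode transcription factors of this response, were at 0.06 and −0.06 and were not called. Atf6 was called lower without control replicate 1 (−0.21) and with the trend with length removed (−0.355). Xbp1 was called higher with no rescaling (0.245) and with the trend with length removed (0.16).

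**Figure D2:**
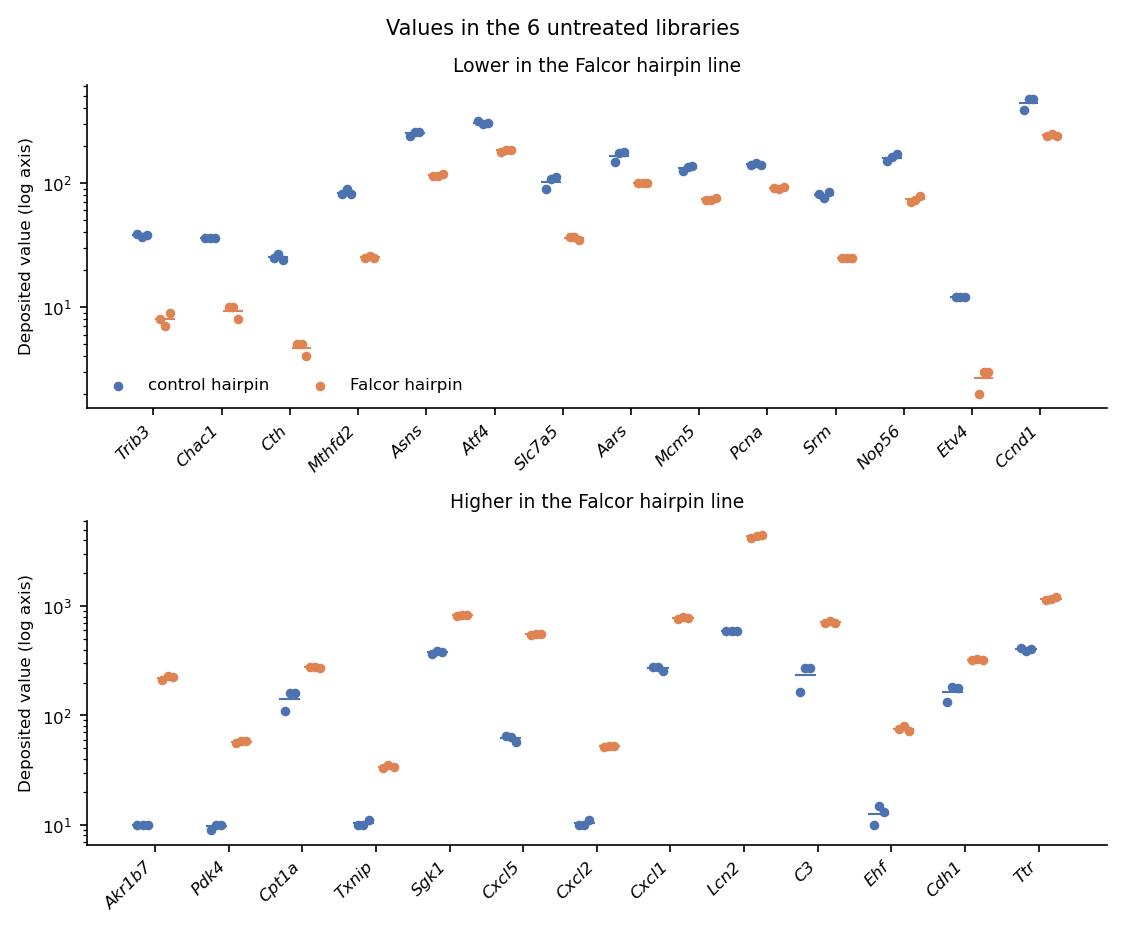
Deposited values (log axis) of 14 genes that were lower and 13 that were higher in the untreated Falcor hairpin line. Each point is 1 library, blue for the control line and orange for the Falcor hairpin line, and each bar is the mean of 3. The 2 sets of points do not overlap for any of these genes. Apart from that, the control points spread widest where control replicate 1 is low, as for Cpt1a (109 against 160 and 159) and C3 (164 against 270 and 271).

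DNA replication genes were lower nearly throughout the list. Of 39 tested, 37 were lower and 1 was higher, 7 at least 2-fold lower, with a median log2 fold change of −0.75. Genes of the replicative helicase were lower together. Mcm5 was at 124, 134 and 138 in the control line against 73, 73 and 75 (−1.02 ± 0.03), and Mcm3 was at 92, 109 and 117 against 56, 56 and 57 (−1.08 ± 0.04). The origin licensing gene Cdc6 was at 12, 12 and 13 against 6 in each Falcor hairpin library (−1.09). Pcna, the sliding clamp, was at 140, 146 and 140 against 91, 90 and 92 (−0.82), and Uhrf1, which maintains DNA methylation at forks, was at 42, 54 and 54 against 27, 27 and 26 (−1.06). The thymidine kinase gene Tk1 and the polymerase delta gene Pold1 were lower by 1.02 and 0.94 on the log2 scale. Rrm2, a subunit of ribonucleotide reductase, stood apart, at 221, 237 and 233 against 232, 237 and 242. Its call (−0.15) was lost with no rescaling. The clamp loader gene Rfc1 was the member that was higher, at 10, 15 and 16 against 21, 21 and 20 (0.41, and 0.25 without control replicate 1). With no rescaling 34 of the 39 were lower and 1 was higher.

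Cell cycle entry genes were lower as well, and mitotic genes less uniformly. Ccnd1, which encodes cyclin D1, was at 386, 473 and 472 against 239, 248 and 238 (−1.06 ± 0.04), and Ccne1, which encodes cyclin E1, was at 14 in each control library against 7, 7 and 6 (−1.14 ± 0.07). Of 17 tested cyclin, kinase and inhibitor genes, 11 were lower and 4 higher. The 4 were the brakes Rbl2, Rb1, Cdkn1b and Cdkn2c. The call of Cdkn2c (0.20) was lost without control replicate 2 (0.15) and without Falcor hairpin replicate 1 (0.155). Rbl2, a retinoblastoma family member, was at 8, 12 and 11 against 20, 22 and 21 (0.79 ± 0.09). Another brake, Cdkn1a, which encodes p21, was lower, at 248, 244 and 249 against 182, 188 and 190 (−0.59). Of 23 tested mitosis genes, 17 were lower and 1 was higher (median −0.26). Birc5, which encodes survivin, was at 140, 141 and 142 against 82, 82 and 85 (−0.95 ± 0.04). Mki67, the proliferation antigen, was at 7, 15 and 16 against 16, 17 and 15 and was not called (0.21). Without control replicate 1 it was at −0.10, also not called. It was called higher without control replicate 3 (0.39), but lower with the trend with length removed (−0.20). With no rescaling 10 mitosis genes were lower and 5 higher. In these bulk libraries fewer cells of a state and less RNA per cell cannot be told apart.

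Transcripts for ribosome assembly were lower. Of 43 genes for ribosome assembly and RNA polymerase I, a list chosen after their values had been seen, so that its count is a description only, 42 were lower and none was higher, 12 at least 2-fold lower, with a median of −0.75. Grwd1, a histone-binding protein of the nucleolus, was at 62, 60 and 60 against 20, 23 and 25 (−1.57 ± 0.06), and Ppan, an assembly factor of the large subunit, at 58, 56 and 56 against 23, 21 and 22 (−1.51 ± 0.05). Nop56 of the RNA-methylating particles was at 149, 162 and 170 against 70, 73 and 78 (−1.30), and Nop2, an rRNA methyltransferase, was at 67, 69 and 73 against 29, 31 and 30 (−1.37). The RNA polymerase I subunit gene Polr1b was at 15, 19 and 19 against 11, 13 and 11 (−0.73). Abundant nucleolar proteins were lower by less. Npm1 was at 231, 240 and 223 against 214, 226 and 215 (−0.27) and Ncl at 20, 22 and 19 against 17, 19 and 18 (−0.35). With no rescaling 36 of the 43 were lower and none was higher.

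The transcription factor MYC binds E-boxes, CACGTG, in many promoters of this class, so stretches of the 2 promoters are shown with that hexamer, which reads the same on both strands, in capitals.
Nop2 (chr6:125131796-125131855, plus strand): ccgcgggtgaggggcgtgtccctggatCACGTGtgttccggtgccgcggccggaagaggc
Grwd1 (chr7:45830740-45830769, minus strand): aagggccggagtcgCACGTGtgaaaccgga
The hexamer was in 10 of 38 ribosome assembly genes with a window (26.3%) and in 970 of 7697 tested genes (12.6%). Myc itself was lower by little, at 93, 91 and 94 against 82, 87 and 79 (−0.35).

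Large-subunit ribosomal protein genes were lower by less than the assembly genes. Of 45, 41 were lower and none was higher (median −0.38). Rpl13a was at 2619, 2461 and 2343 against 1745, 1812 and 1828 (−0.65 ± 0.05), and Rplp0 at 2961, 2829 and 2815 against 2529, 2614 and 2638 (−0.34 ± 0.04). These transcripts are short. Without control replicate 1, 40 were lower, against 35.9% of all genes in that fit. Once the trend with length had been removed the median was −0.18 and 35 were lower, against 34.5%. Many of these genes have processed pseudogenes, and how the authors' counting shared reads among near-identical copies is not given in the sources used here. Of 7 polyamine genes, also listed after their values had been seen, 5 were lower and 1 was higher. Srm, spermidine synthase, was at 81, 76 and 85 against 25 in each Falcor hairpin library (−1.83 ± 0.05), and Odc1, the committing enzyme, was at 171, 197 and 197 against 110, 117 and 118 (−0.89 ± 0.03).

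Fat oxidation genes were higher in the Falcor hairpin line. Of 34 tested genes of fatty acid oxidation and PPAR alpha, 26 were higher and 3 lower, with a median log2 fold change of 0.37. Pdk4, which turns pyruvate away from oxidation, was at 9, 10 and 10 in the control line and at 56, 59 and 58 in the Falcor hairpin line (2.28 ± 0.13). Cpt1a, the gate for fatty acid entry into mitochondria, was at 109, 160 and 159 against 279, 280 and 274 (0.79 ± 0.08). Creb3l3, a fasting-induced liver transcription factor, was at 3, 4 and 4 against 9, 10 and 10 (1.03), and Ppara itself was at 6, 11 and 10 against 16, 15 and 15 (0.57, and 0.37 without control replicate 1). The thioesterase Acot1 was at 145, 159 and 162 against 321, 336 and 324 (0.88 ± 0.04). The enzymes of the spiral itself differed by less, such as Acadvl (0.27) and Hadh (0.30). The lipid droplet coat gene Plin2, a PPAR alpha target, was lower (−0.27), as were Acads and Etfb (−0.26 and −0.24), 2 calls that were lost with no rescaling. Etfb was at −0.14 without control replicate 1. With no rescaling 30 of the 34 were higher and 1 was lower.

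FOXO and insulin responsive genes and glucocorticoid responsive genes were higher too. Of 15 tested FOXO and insulin genes, 12 were higher and 1 was lower (median 0.72, and 0.48 once the trend with length had been removed, with 11 higher against 30.1% of all genes in that fit). Txnip, which limits glucose uptake and binds thioredoxin, was at 10, 10 and 11 against 33, 35 and 34 (1.45 ± 0.06). Pdcd4, a translation inhibitor, was at 14, 15 and 15 against 51, 54 and 50 (1.56 ± 0.07). Foxo3 was at 18, 26 and 27 against 50, 51 and 52 (0.91 ± 0.08), and the insulin receptor gene Insr was higher by 0.60. Irs2, the insulin receptor substrate, went the other way, at 28, 44 and 46 against 35, 36 and 34 (−0.32, and −0.50 without control replicate 1). Its call was lost without control replicate 2 (−0.24) or 3 (−0.21) and with no rescaling (−0.13). Of 15 tested glucocorticoid responsive genes, 13 were higher and 1 was lower (median 0.80). The receptor gene Nr3c1 was at 6, 10 and 8 against 17 in each Falcor hairpin library (0.85 ± 0.10). Sgk1, a kinase gene and classical target, was at 368, 388 and 382 against 818, 833 and 837 (0.94 ± 0.03). Zbtb16, another, was at 8, 14 and 15 against 30, 31 and 28 (1.06 ± 0.13), and the metallothionein genes Mt1 and Mt2 were higher by 0.80 and 0.93. Fkbp5, Per1 and Tsc22d3, which respond strongly to these hormones, were higher by only 0.25, 0.17 and 0.27. Dusp1 was the listed gene called lower (−0.12, and −0.08 without control replicate 1), a call that was lost with no rescaling (0.06).

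**Figure D3:**
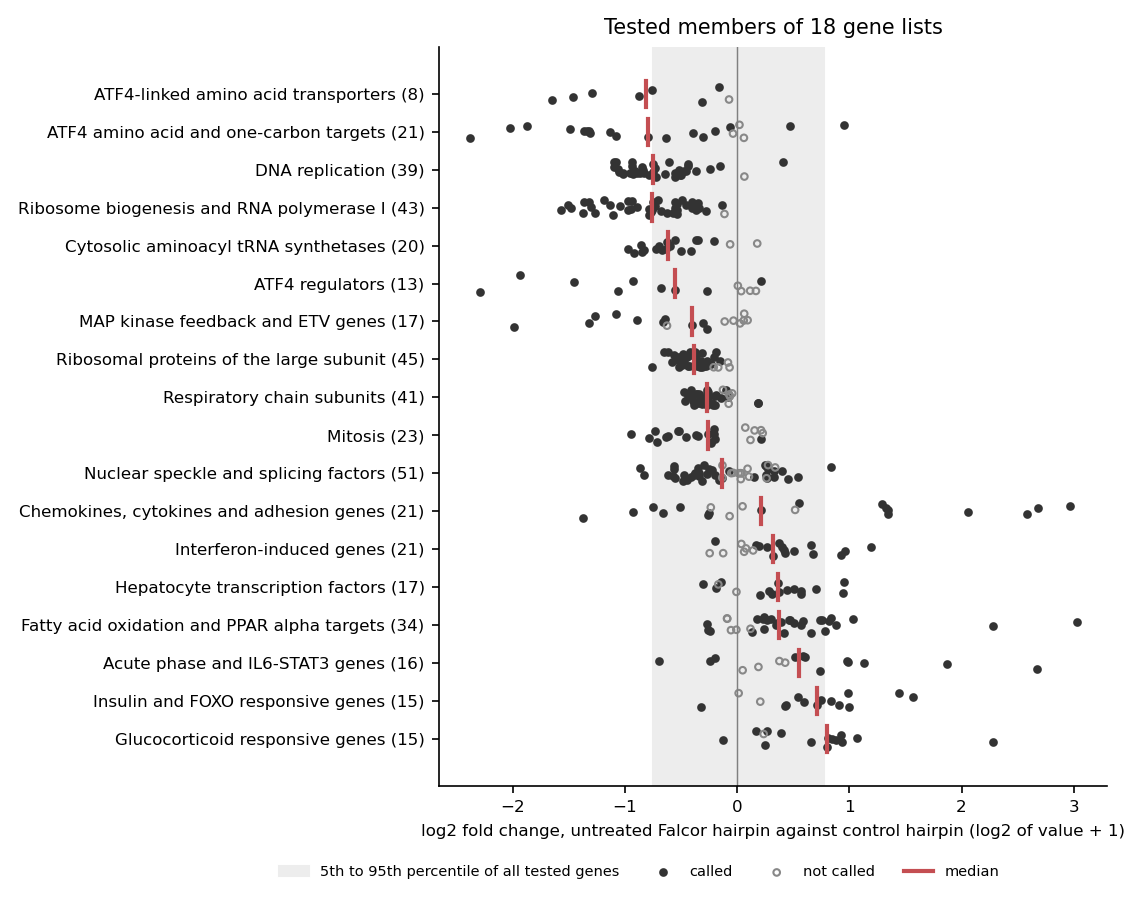
Log2 fold change of each tested member of 18 gene lists, untreated Falcor hairpin against control hairpin. Filled points passed limma's test, open points did not, red bars are list medians, and the grey band spans the 5th to the 95th percentile of all tested genes (−0.75 to 0.77). The median of the nuclear speckle list is −0.13 and becomes 0.05 with no rescaling. Amino acid, replication and ribosome assembly lists lie to the left, and glucocorticoid, FOXO and acute phase lists to the right.

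Chemokine genes split into a higher and a lower set. Of 21 tested chemokine, cytokine and adhesion genes, 10 were higher and 7 lower, and 8 were at least 2-fold higher, against 1.93% of all genes. The 4 tested CXC chemokines that attract neutrophils were on the higher side. Cxcl5 was at 65, 63 and 57 against 547, 560 and 560 (2.96 ± 0.07), Cxcl2 at 10, 10 and 11 against 52, 53 and 53 (2.06 ± 0.10), Cxcl1 at 277, 279 and 258 against 756, 793 and 783 (1.33 ± 0.06) and Cxcl3 at 14, 13 and 12 against 40, 40 and 38 (1.35 ± 0.07). The granulocyte growth factor gene Csf3 was at 1 in each control library and at 12, 13 and 12 in the other line, and Csf2, a related factor, was at 11, 10 and 10 against 31, 31 and 33 (1.35 ± 0.19). The adhesion gene Vcam1 was at 46, 52 and 51 against 141, 140 and 139 (1.29 ± 0.04). The lower set held chemokines for other leukocytes. Ccl20, which attracts lymphocytes and dendritic cells, was at 190, 172 and 173 against 76, 77 and 81 (−1.37 ± 0.08), and Ccl2, the monocyte chemokine, at 1890, 1790 and 1688 against 1050, 1064 and 1097 (−0.93 ± 0.05). Il33, an alarm cytokine, was at 21, 26 and 23 against 15, 15 and 16 (−0.75). With no rescaling 11 were higher and 3 lower.

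Promoter stretches with an NF-kB site (GGG, any 2 bases, then TTTCC) are shown for 3 of the higher chemokines and for Ccl20, which was lower. Capitals mark the site on either strand.
Cxcl1 (chr5:90891140-90891199, plus strand): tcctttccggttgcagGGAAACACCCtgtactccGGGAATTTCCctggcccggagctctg
Cxcl2 (chr5:90903787-90903846, plus strand): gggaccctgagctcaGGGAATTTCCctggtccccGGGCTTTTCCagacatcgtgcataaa
Cxcl3 (chr5:90786003-90786062, plus strand): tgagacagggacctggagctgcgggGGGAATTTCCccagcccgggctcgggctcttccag
Ccl20 (chr1:83116661-83116720, plus strand): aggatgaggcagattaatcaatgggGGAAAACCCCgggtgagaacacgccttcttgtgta
The letters were in 6 of 14 genes of the list with a window (42.9%) and in 156 of 7697 tested genes (2.03%). They were in 9 of 136 genes called and at least 2-fold higher (6.62%) and in 2 of 117 at least 2-fold lower (1.71%). Chemokines of both directions held the motif.

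Genes for NF-kB itself did not move together. Of 17 tested subunit and feedback genes, 5 were higher and 6 lower. Nfkbiz, an atypical inhibitor that drives a subset of these targets, was at 7, 9 and 8 against 31, 32 and 32 (1.69 ± 0.08), and the ubiquitin ligase gene Birc2 was at 9, 10 and 11 against 25, 25 and 24 (1.05 ± 0.08). Relb, a subunit of the noncanonical branch, was at 46 in each control library against 31, 34 and 34 (−0.65 ± 0.05), and Rela was lower by 0.45 on the log2 scale. Nfkbia, the rapid feedback inhibitor, was at 111, 110 and 111 against 120, 126 and 122 and was not called (−0.04). It was called higher with no rescaling (0.15) and with the trend with length removed (0.12). With no rescaling 8 of the 17 were higher and 5 lower.

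Of 16 tested acute phase and STAT3 genes, 9 were higher and 3 lower (median 0.56). Lcn2, which encodes lipocalin 2, an iron-withholding acute phase protein, was at 598, 591 and 598 in the control line and at 4228, 4347 and 4457 in the Falcor hairpin line (2.67 ± 0.03). The complement gene C3 was at 164, 270 and 271 against 706, 725 and 703 (1.44 ± 0.11), and Lbp, which presents bacterial lipopolysaccharide, at 258, 279 and 292 against 610, 629 and 643 (0.99 ± 0.03). Haptoglobin mRNA went the other way, with Hp at 96, 91 and 93 against 67, 68 and 61 (−0.70 ± 0.10). Saa3, a serum amyloid gene, was at 209, 183 and 184 against 288, 310 and 287 without overlap, yet it was not called (0.43 ± 0.23). With no rescaling 13 were higher and 1 was lower. Of 21 tested interferon-induced genes, 14 were higher and 1 was lower (median 0.32), while 25 of the 46 listed genes that the table holds were below the minimum value. Ifitm3, an antiviral membrane protein, was at 4, 5 and 4 against 13, 12 and 13 (1.19 ± 0.17) and Parp9 at 4, 6 and 5 against 12 in each library (0.96 ± 0.13). The interferon transcription factor gene Irf9 was higher by 0.37. Macrophage and leukocyte markers were near 0 in both lines. Of 16 listed, 13 were at 0 in all 6 libraries, none was tested, and the 16 summed to 2 to 4 in the control line and 2 to 3 in the Falcor hairpin line.

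Genes downstream of growth factor signalling were lower or not called. Of 17 tested MAP kinase feedback and ETV genes, 10 were lower and none was higher (median −0.40). Etv4, a transcription factor gene of this pathway, was at 12 in each control library against 2, 3 and 3 (−1.99 ± 0.09). Plaur, the urokinase receptor gene, was at 89, 87 and 89 against 38, 39 and 42 (−1.32 ± 0.04), and Areg, an EGF receptor ligand gene, at 8, 8 and 7 against 3 in each (−1.26 ± 0.09). Egfr was lower by 0.89 on the log2 scale. The feedback phosphatase gene Dusp6 and the transforming growth factor alpha gene Tgfa were at 0.06 and 0.03 and were not called. With no rescaling 8 were lower and 5 higher. Immediate early genes split, with 8 of 24 higher and 10 lower, but 13 higher and 6 lower with no rescaling. Fos was at 85, 89 and 86 against 189, 189 and 198 (0.95 ± 0.14) and Egr2 at 3, 4 and 4 against 15, 15 and 16 (1.64 ± 0.21). In contrast Fosl1, a later member of the AP-1 family, was at 62, 70 and 70 against 36, 35 and 36 (−1.08 ± 0.05). Targets of YAP and TGF beta also split, with 5 of 20 higher and 9 lower, but 8 higher and 5 lower with no rescaling. Ankrd1 was at 446, 466 and 451 against 234, 232 and 231 (−1.15 ± 0.04) and Ccn2 at 783, 827 and 820 against 486, 502 and 497 (−0.90 ± 0.03). The receptor gene Tgfbr1 was the most raised of the list, at 14, 21 and 19 against 61, 61 and 58 (1.52 ± 0.08).

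The hepatocyte label was checked against markers. Of 10 hepatocyte markers 8 were tested, and the list summed to 5313 to 5495 in the control line and to 5249 to 5479 in the Falcor hairpin line. Keratins held much of that sum. By direction, 3 of the 8 tested were called higher and 5 lower (median log2 fold change −0.36). Alb, the defining product of liver, was low and lower still in the Falcor hairpin line, at 56, 64 and 62 against 49, 49 and 48 (−0.50 ± 0.04), and Apoa1 and Ahsg were below the minimum value. Of 12 endothelial markers 11 were at 0 in all 6 libraries, as were 11 of 17 stellate and mesenchymal markers. Of 12 biliary markers, which cultured hepatocytes can gain, 4 were at 0 in all 6 libraries. The biliary list summed to 2198 to 2288 against 2670 to 2759. These sums are of deposited values, without the rescaling that the fold changes have. Of 8 tested, 5 were higher and 2 lower. Anxa4 was at 680, 741 and 695 against 1082, 1125 and 1103 (0.46), while Krt7 was lower, at 93, 87 and 90 against 63, 69 and 72 (−0.59), as was Spp1, at 280, 289 and 286 against 208, 220 and 216 (−0.60). Among adhesion and filament genes, Cdh1, which encodes E-cadherin, was at 132, 184 and 179 against 322, 329 and 321 (0.80 ± 0.06). Cdh2, which encodes N-cadherin, was at 186, 244 and 239 against 135, 136 and 136 (−0.89 ± 0.05), and Vim, the intermediate filament gene of mesenchymal cells, was at 1015, 1050 and 1033 against 815, 823 and 817 (−0.53 ± 0.03). Zeb1, which encodes a mesenchymal transcription factor, was higher, at 4, 5 and 5 against 8, 8 and 7 (0.45). Of the 5 tested mesenchymal markers 3 were lower and 1 was higher. Ehf, an epithelial ETS factor gene, was at 10, 15 and 13 against 76, 80 and 72 (2.33 ± 0.15). Krt8 and Krt18, also epithelial, were lower by 0.50 and 0.48 on the log2 scale. Of 15 epithelial markers 7 were at 0 in all 6 libraries, and of the 8 tested 4 were higher and 2 lower.

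Hepatocyte transcription factor genes were mostly higher, and hepatocyte secreted proteins split. Of 17 tested factor genes, 12 were higher and 3 lower (median 0.37). Hnf4a was at 43, 58 and 58 against 77, 79 and 77 (0.37 ± 0.06), Cebpa at 22, 21 and 21 against 33, 36 and 36 (0.50 ± 0.06) and Onecut1 at 3, 6 and 6 against 12, 11 and 12 (0.96 ± 0.14). The libraries of the lines did not overlap for these 3 genes. Of 14 tested secreted and metabolic proteins, 4 were higher and 7 lower, and 29 of the 43 listed were below the minimum value. Ttr, which encodes the thyroxine carrier transthyretin, was at 416, 393 and 406 against 1131, 1175 and 1215 (1.34 ± 0.04), whereas Rbp4, which encodes the retinol carrier that binds transthyretin, was at 318, 298 and 291 against 173, 180 and 183 (−0.94 ± 0.05). Agt, angiotensinogen, was at 7, 8 and 7 against 22, 21 and 23 (1.29 ± 0.08), and Gc, the vitamin D carrier, at 351, 372 and 361 against 215, 213 and 225 (−0.92 ± 0.03). Apob, with one of the longest transcripts of the liver, was at 6, 21 and 21 against 39, 39 and 36. Its log2 fold change was 1.20 ± 0.29, and 0.68 without control replicate 1. The call was lost in a fit of only the 6 untreated libraries (limma adjusted p = 0.0624).

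Cholesterol genes, respiratory chain genes and splicing factor genes differed by little. Direction leaned on the scaling for the cholesterol and splicing lists, while the respiratory chain list stayed lower, by less. Of 26 tested cholesterol genes, 15 were lower and 3 higher, but with no rescaling 7 were lower and 11 higher. Hmgcs1, which acts early in the pathway, was at 35, 46 and 41 against 65, 61 and 63 (0.44). Of 41 nuclear-encoded respiratory chain genes, 34 were lower and 2 higher (median −0.27). With no rescaling 17 were lower and 7 higher (median −0.08), and with the trend with length removed 19 were lower and 9 higher (median −0.07). Of 51 nuclear speckle and splicing genes, 25 were lower and 13 higher (median −0.13), but 17 and 23 with no rescaling, where the median was 0.05, and 25 and 5 with the trend with length removed. Srsf7, a splicing factor of the SR family, was at 145, 132 and 135 against 85, 86 and 85 (−0.87 ± 0.05). Neat1, the architectural RNA of paraspeckles, was at 35, 40 and 42 against 77, 84 and 80 (0.84 ± 0.05), and Malat1, a speckle RNA, at 57, 62 and 55 against 82, 91 and 78 (0.33 ± 0.09). Both calls were lost with the trend with length removed (0.16 and 0.05). The speckle scaffold gene Srrm2 was at 22, 49 and 52 against 55, 57 and 55 and was not called (0.34, and −0.01 without control replicate 1), though it was called higher without control replicate 2 (0.49) or 3 (0.54). Of 20 tested genes of the TREX complex and mRNA export, 9 were lower and 2 higher, against 4 and 9 with no rescaling. Nxt1, an export factor partner, was at 50, 47 and 47 against 29, 29 and 30 (−0.88 ± 0.06), and Thoc2, the scaffold of the THO complex, at 3, 5 and 4 against 9, 10 and 8 (0.85 ± 0.12).

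The largest differences lay partly outside these programs. Olfm4, a secreted glycoprotein gene known from intestinal crypts, had 0 in every control library and 20 in every Falcor hairpin library. Pglyrp1, a peptidoglycan recognition protein gene, was likewise listed at 0 in the control line, and at 6, 8 and 7 in the other line. Akr1b7, an aldose reductase family gene, was at 10 in each control library and at 210, 229 and 227 in the Falcor hairpin line (4.15 ± 0.07). The matrix protease gene Mmp7 was at 2, 1 and 2 against 15, 15 and 16 (2.47 ± 0.17), Xdh, xanthine dehydrogenase of purine breakdown, at 3, 8 and 8 against 31, 30 and 30 (2.02 ± 0.21) and Adh1, alcohol dehydrogenase, at 6 in each against 25, 24 and 25 (1.70 ± 0.14). For each of these genes the libraries of the lines stood far apart. On the lower side, Tigit, best known from T cells, was at 27, 28 and 29 against 8, 9 and 9 (−1.76 ± 0.05), Ly6c1, a surface antigen gene, at 26, 27 and 23 against 7, 8 and 8 (−1.77 ± 0.18) and Sprr1a, a cornified envelope gene, at 448, 433 and 446 against 170, 169 and 176 (−1.55 ± 0.04). The glutathione transferase gene Gstp3 was at 9, 7 and 10 against 2, 1 and 2. Derpc, at 23, 10 and 8 against 3, 3 and 4, rested on control replicate 1 for part of its size (−1.78, and −1.32 without it).

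The difference between the lines was then set beside its size in the restored state, which uses separate libraries of both lines. Of 364 genes called and at least 2-fold different in untreated cells, 304 also passed the test with the same sign in restored cells. There 57.6% of all genes were called, 26% higher and 31.6% lower. The 2 differences themselves differed for 1965 of all 10027 genes (19.6%), and for 170 of the 364. Not every list median kept its sign. That of the chemokine, cytokine and adhesion genes went from 0.21 untreated to −0.18 restored. That of the hepatocyte secreted and metabolic proteins went from −0.165 to 0.07. The median of the MAP kinase feedback and ETV genes kept its sign and was larger in size, at −0.40 and −0.80. Other medians also changed sign, such as those of the hepatocyte markers (−0.36 to 0.12) and the epithelial markers (0.21 to −0.04). Some grew in size, such as those of the cholesterol genes (−0.14 to −0.45) and the YAP and TGF beta targets (−0.14 to −0.41). Still others kept their sign at a like or smaller size. The median of the amino acid and one-carbon targets was −0.79 untreated and −0.83 restored, that of the replication genes −0.75 and −0.47, and that of the ribosome assembly genes −0.75 and −0.64. In the restored state 17, 34 and 40 of their members were lower and 3, 1 and 1 higher, where 31.6% of all genes were lower and 26% higher. Of single genes with large differences, some had smaller ones there and others did not. Tigit was at −1.76 untreated and −2.47 restored, and Mmp7 at 2.47 and 2.50. Trib3 was at −2.29 untreated and −1.60 restored, Mthfd2 at −1.87 and −1.08, Mcm5 at −1.02 and −0.74, and Srm at −1.83 and −1.40. Nupr1 lost more of its difference, from −1.94 to −0.53 (limma adjusted p of the change 3.69e-09). Cxcl5 went from 2.96 to 0.43. Cholesterol genes, mixed in untreated cells, were called lower in 25 of 26 cases in the restored state, and none was higher.

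Some genes turned round between these states. Cxcl1 was higher by 1.33 in untreated cells, and in the restored state the Falcor hairpin line was lower by 0.59 on the log2 scale (limma adjusted p of the change 2.11e-11). Csf2 went from 1.35 to −1.46 and Tnfaip3, an NF-kB feedback gene, from 0.50 to −0.78. In the other direction Hp went from −0.70 to 1.53, Gc from −0.92 to 0.78 and the matrix protein gene Spp1 from −0.60 to 1.30. Each of these 6 changes passed limma's test. Over all tested genes, 180 were called in opposite directions in the 2 states and 4552 in the same direction, which is 69.7% of those called in untreated cells and 78.8% of those called in the restored state.

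With doxycycline the difference between the lines was mostly another one. Of the 364 genes, 88 passed the test with the same sign with doxycycline and 120 with the opposite sign. In that state 51.8% of all genes were called, counting either direction. The 2 differences differed for 6475 of all genes (64.6%) and for 321 of the 364. Asns went from −1.31 to 0.16, Mcm5 from −1.02 to 0.19, Srm from −1.83 to 0.24, Cpt1a from 0.79 to −0.51 and Ttr from 1.34 to −0.68. Values of the doxycycline libraries also hold the response of each line to the drug.

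Some genes separated the lines in every state. The libraries of the lines did not overlap in the same direction in all 3 states for 546 genes that were higher (5.45% of those tested) and 637 that were lower (6.35%). By the smallest of the 3 differences, the genes that were higher were led by Lcn2 (2.67 untreated, 1.49 restored and 3.03 with doxycycline), Akr1b7 (4.15, 1.88 and 1.42), Agt (1.29, 2.86 and 1.24) and Ifitm3 (1.19, 1.75 and 1.24). Txnip (1.45, 1.96 and 1.02), the proapoptotic gene Bmf (1.02, 1.51 and 1.09) and Ehf (2.33, 2.44 and 0.86) followed. Those that were lower were led by Ccl20 (−1.37, −1.88 and −1.08) and by Rdh10, a retinol dehydrogenase gene (−1.18 untreated and −1.42 restored). Lgals3, which encodes galectin 3, was at 296, 263 and 267 against 167, 160 and 171 in untreated cells (−0.91, −0.85 and −0.96). Tnfrsf12a, the receptor gene for the cytokine TWEAK, was at 389, 359 and 389 against 153, 166 and 163 (−1.42, −1.56 and −0.83). Falcor was not among them, since its difference was 0.75 untreated, 0.86 restored and −0.78 with doxycycline.

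**Figure D4:**
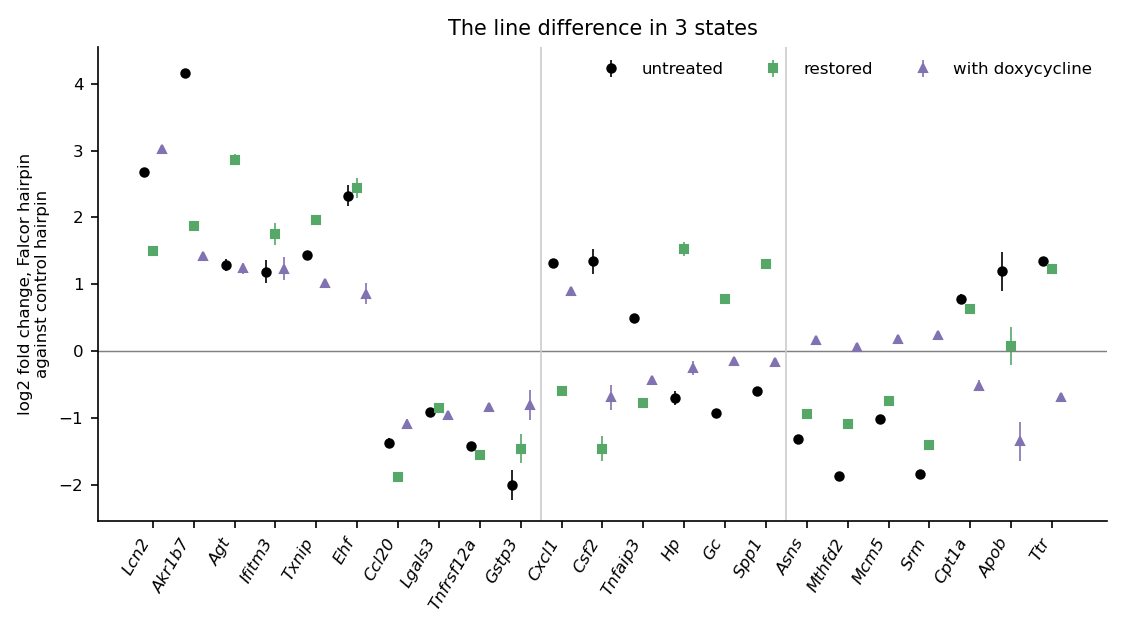
Log2 fold change of the Falcor hairpin line against the control line in the untreated (circles), restored (squares) and doxycycline (triangles) state, with standard errors of the fit as bars, for 23 genes. The first 10 keep their direction in all 3 states, such as Lcn2 and Ccl20. The next 6 differ in sign between untreated and restored cells, and among the last 7 Asns, Mcm5, Srm and Ttr show an untreated difference that is small or opposite with doxycycline.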

How the data were processed

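Expression was measured by RNA sequencing of rRNA-depleted, strand-specific libraries, per the labels' protocols. The authors deposited 1 table with a whole number per gene and library, treated here as a score because its unit is not stated and the values resemble rounded TPM. Tools listed without version or role, per the submitters' processing notes, are kallisto and DESeq2, with the build mm10. Values were rescaled by the trimmed mean of M-values, taken as log2 of the value plus 1 and fitted with limma 3.58.1 (R 4.3.3, trend and robust) over all 18 libraries of these lines in 6 groups, with Benjamini-Hochberg adjustment over 10027 genes of mean at least 3 and a threshold of 0.05. Fold changes are on that log2 scale and understate low genes. Named genes were the study's own genes, tested members of the lists, the 25 largest called differences per direction and the 10 per direction that held in all 3 states. The genes and lists were chosen with earlier results of these data known. The fit was tested on simulated data. Alternatives were other scalings, pseudocounts, filters and fits, each library left out, the replicate block and, added after seeing the data, removal of the length trend. Promoters are from RefSeq. Some results are not reported here.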

Additional observations from a re-analysis of the deposited data

Results flagged for a closer look

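The difference between the lines was not the same in the 3 states. It differed between untreated and restored cells for 1965 of 10027 genes, and between untreated cells and cells with doxycycline for 6475, by limma's test of the difference between the 2 contrasts.

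Among the genes named above, 11 were called in opposite directions in untreated and restored cells, and the change between the states passed limma's test for each. The untreated difference minus the restored one was 2.80 on the log2 scale for Csf2, 1.92 for Cxcl1, 1.28 for Tnfaip3, 0.86 for Vldlr, 0.69 for Hmgcs1 and 0.67 for Zeb1. It was 0.45 for Tsc22d3 and 0.35 for Per1. In the other direction it was −1.69 for Gc, −1.90 for Spp1 and −2.22 for Hp.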

How the results depend on the processing

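The number of genes called in untreated cells kept within 1.5 times of 6533 under every alternative run, and was 6024 to 6501 with 1 library left out. The count of genes called and at least 2-fold different, 364, was 312 to 451 with 1 library left out, 180 with a pseudocount of 4, 239 with a mean of at least 10 and 547 with no filter. With no rescaling the median of all genes moved from −0.00803 to 0.172, and the nuclear speckle median from −0.13 to 0.0531. Same-numbered libraries of the lines did not deviate together (correlations −0.0558, 0.032 and −0.0109), which cannot settle whether the numbers pair them. A replicate block gave 6521 calls, 363 of them at least 2-fold. Read depth is unknown, which limits what can be said of low genes. With no rescaling the log2 fold change changed sign, to 0.12 for Atf6, 0.13 for Cbs, 0.13 for Dars, 0.0646 for Dusp1, 0.19 for Fn1, 0.17 for Foxa1, 0.0457 for Foxa2, 0.15 for Nfkbia, 0.12 for Psat1, 0.0414 for Rrm2, 0.0283 for Slc1a5, 0.11 for Slc38a7 and 0.12 for Zc3h11a. With upper-quartile scaling the log2 fold change changed sign, to 0.000205 for Cbs, 0.0402 for Fn1 and 0.033 for Foxa1. With median-of-ratios scaling the log2 fold change changed sign, to 0.00143 for Fn1. With the length trend removed the log2 fold change changed sign, to 0.0359 for Dars, −0.12 for Eif2ak3, −0.0153 for Eif2ak4, −0.20 for Mki67, 0.12 for Nfkbia, −0.0316 for Srrm2, −0.0507 for Stc2 and −0.0987 for Tgfa. With 1 library left out the value crossed 0, running from −0.21 to 0.0458 for Atf6, −0.0801 to 0.0383 for Cbs, −0.054 to 0.0619 for Eif2ak3, −0.0527 to 0.32 for Eif2ak4, −0.58 to 0.31 for Fn1, −0.0776 to 0.0667 for Foxa1, −0.0978 to 0.39 for Mki67, −0.0689 to 0.00136 for Nfkbia, −0.00793 to 0.54 for Srrm2, −0.0201 to 0.0537 for Stc2, −0.0479 to 0.0665 for Tgfa and −0.12 to 0.00243 for Zc3h11a. Calls were lost, with the sign kept, for Apob, Cdkn2c, Dusp1, Eprs, Etfb, Irs2, Per1, Psat1 and Slc1a5 in the fit of only the 6 untreated libraries, and for Dusp1, Etfb, Foxa2, Malat1, Neat1, Per1, Psat1, Slc1a5 and Vldlr with the length trend removed. With no rescaling they were lost for Acads, Atf3, Eprs, Etfb and Irs2. In that fit Dars, Dusp6, Eif2ak3, Gpt2, Nfkbia, Saa3, Srrm2, Stc2, Tgfa and Xbp1 became called higher. Psat1 turned there from called lower to called higher. With the length trend removed Nfkbia and Xbp1 became called higher, and Atf6, Mki67 and Tgfa became called lower. The cause of these changes was not tested.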
